A study of Mus musculus with 48 samples.

Results

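Heat shock proteins and their J-domain cochaperones were described in 48 whole tumours grown under the skin of female BALB/c mice aged 8 to 9 weeks, 1 tumour per library. Members were the genes whose symbol starts with Hspa, Hspb, Hspd, Hspe, Hsph, Hsp90, Dnaja, Dnajb or Dnajc followed by a digit, a or b, without pseudogenes. The rule found 61 of the 39637 genes in the count table: 41 of the cytosol and nucleus, 10 of the endoplasmic reticulum (ER), 8 of mitochondria, and Hspb11 and Dnajc22, which were placed in none of the 3. Of the tumours, 24 came from AB1 mesothelioma cells and were excised on day 8, and 24 from Renca kidney cancer cells, excised on day 10. Tumours were taken before antibodies against CTLA4 and PD-L1 were given to these mice, and the outcome under those antibodies sorted the mice of each line into 12 responders and 12 non-responders. All groups share the host strain and the later treatment, and each line is 1 transplanted cell line, so the mice are the replicates and the cancers are not.

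Molecular chaperones bind proteins that are not folded and keep them from clumping. HSP70 proteins bind and release such clients with ATP; J-domain proteins bring the clients and start ATP use, and HSP110 proteins exchange the nucleotide. HSP90 proteins finish the folding of kinases and receptors, small heat shock proteins hold unfolded clients without ATP, and the HSP60 and HSP10 pair forms a closed folding chamber in mitochondria. Heat shock factor 1 drives many of these genes in the cytosol, and the unfolded protein response drives those of the ER. Rapidly growing tumour cells are known to carry high levels of chaperones.

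Some members carry the recognition sequence of their stress pathway just before the start of the gene. Promoter windows of 300 bases (250 before and 50 after the start, RefSeq, GRCm38.p6) matched 48 of the 61 members. A heat shock element of 3 units (GAA, 2 bases of any kind, TTC, 2 bases of any kind, GAA, on either strand) was found in windows of 4 of the 48 members (8.33%), Dnajb6, Hspd1, Hspe1 and Hsph1, and in 0.662% of 27025 genes with a window. The ER stress element (CCAAT, 9 bases of any kind, CCACG, on either strand) was found in Hspa5 and Hsp90b1 (4.17% of the members) and in 0.137% of all genes. The shorter GAANNTTC, which is contained in the heat shock element of 3 units, was found in 12 members (25.0%) and in 9.04% of all genes. The 12 include Hspa1a, Hspa1b, Hspb1, Hspb8, Dnaja1 and Dnaja4. TGACGTGG, a site of the unfolded protein response factor XBP1, was found in 1 member, Dnajc25, and in 0.714% of all genes. The stretches below show a heat shock element in 2 genes and an ER stress element in 2 others, all described further on; capitals mark the match, with overlapping matches joined.
Hspe1: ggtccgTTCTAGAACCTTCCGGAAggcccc
Dnajb6: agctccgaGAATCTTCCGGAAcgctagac
Hspa5: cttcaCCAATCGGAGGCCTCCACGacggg
Hsp90b1: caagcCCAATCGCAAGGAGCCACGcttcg
The Hspe1 stretch lies at chr1:55088053-55088082 on the plus strand, in the promoter that Hspe1 shares with Hspd1. Hspe1 starts at position 55088148 and runs to the right, and Hspd1 starts 216 bases to the left, at 55087932, and runs to the left, so the same element stands between them. RefSeq gives Hspd1 a second start at 55088243, to the right of the Hspe1 start. Seen from that start the element does not lie between the 2 starts, and the window of that start held no heat shock element of 3 units. The Dnajb6 stretch lies at chr5:29735844-29735872 (plus), the Hspa5 stretch at chr2:34772020-34772048 (plus) and the Hsp90b1 stretch at chr10:86705633-86705661 (minus). Hsp90b1 has a second ER stress element nearer its start, and the Hsph1 match begins 37 bases after the start. A match describes these letters and shows no binding.

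Library totals ran from 16441426 to 27838494 counts. Levels are given as CPM, counts relative to library size after TMM scaling. The tissue labels were checked first: renal tubule markers summed to between 212 and 470 CPM in Renca and to at most 6.78 CPM in AB1, while 4 mesothelium markers summed to at most 8.97 CPM in AB1, so AB1 was not marked by them. AB1 non-responder 3 stood apart, with skin markers at 923 CPM against a median of 9.96 CPM in its group and hypoxia markers at 5007 against 1364 CPM, and with a 260/230 purity ratio under 1.8. It was also the highest AB1 non-responder for Hspb1, Hspa1a, Hspa1b, Hspa8, Hsph1, Hspb6, Hspb8, Dnajb1, Dnajb4, Dnaja1 and Dnajb2, among others. Calls of members that turned on that tumour, and some of the larger shifts, are therefore given with and without it. Leukocyte markers (9 of 10 listed) summed to between 1134 and 1796 CPM in AB1 non-responders and between 1903 and 3864 CPM in AB1 responders, with no overlap, and to between 1309 and 2014 against 1739 and 2546 CPM in Renca. Fibroblast markers (7 of 9) had medians of 23770 and 11510 CPM in AB1 non-responders and responders, and cell cycle markers (10 of 10) medians of 2012 and 1491 CPM. The fibroblast sum was mostly the collagens Col3a1, Col1a2 and Col1a1 (medians of 13420, 6418 and 3058 CPM in non-responders). Of the 7 fibroblast markers, Thy1 alone had the higher median in responders (109 and 206 CPM), and Pdgfra had 435 and 387 CPM. No defining marker of these 3 lists was at 0. In whole tumours, fewer cells of a type and less RNA per cell cannot be told apart, and the part of fibroblasts and cycling cells in the results was not tested.

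The chaperones of the cytosol made up most of the members' RNA. All 61 members together took 1.24% of counts in AB1 non-responders, 1.13% in AB1 responders, 1.09% in Renca non-responders and 1.10% in Renca responders (means of 12). Of that, cytosolic members took 64.2% ± 2.30 and 66.3% ± 2.48 in AB1 non-responders and responders and 59.5% ± 0.801 and 61.0% ± 1.20 in Renca (SD, n = 12 each). Mitochondrial members took 7.62% ± 0.810 and 6.17% ± 0.459 in AB1 and 8.90% ± 0.443 and 8.22% ± 0.498 in Renca. Per kilobase of exon, Hsp90ab1 (the constitutive cytosolic HSP90) and Hspa8 (the constitutive HSP70) stood highest, at 728 ± 55.4 and 630 ± 68.6 CPM per kb in AB1 non-responders, followed by Hsp90b1 (the HSP90 of the ER) at 406 ± 43.95 and Hspa5 (BiP, the HSP70 of the ER) at 289.9 ± 30.6 (SD, n = 12 each). In AB1 responders the order was the other way, at 595 ± 68.8 for Hsp90ab1 and 682 ± 93.1 for Hspa8, and in both groups the ranges of mean ± SD overlapped.

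The first question was which members differed between AB1 tumours of responders and non-responders. Of the 56 members tested, 10 were higher and 20 were lower in responders (edgeR quasi-likelihood test, Benjamini-Hochberg adjusted p under 0.05 over 15859 genes). Over all genes tested, 60.4% passed, 27.7% higher and 32.7% lower, against 17.9% and 35.7% of the members. The median log2 fold change of the members was -0.12 and that of all genes -0.04. By role the calls split: the 10 members that rose were all J-domain proteins (10 of 32 tested, with 8 lower), while among the other 24 members, the HSP70, HSP90, HSP110, chaperonin and small heat shock proteins and Hspb11, which is none of these by function, 0 were higher and 12 were lower. The 24 had a median of -0.26 and the 32 J-domain proteins one of 0.02. By place, 5 of 8 mitochondrial members fell and 0 rose, cytosolic members split into 8 higher and 10 lower of 36, and ER members into 2 higher and 3 lower of 10.

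**Figure D1:**
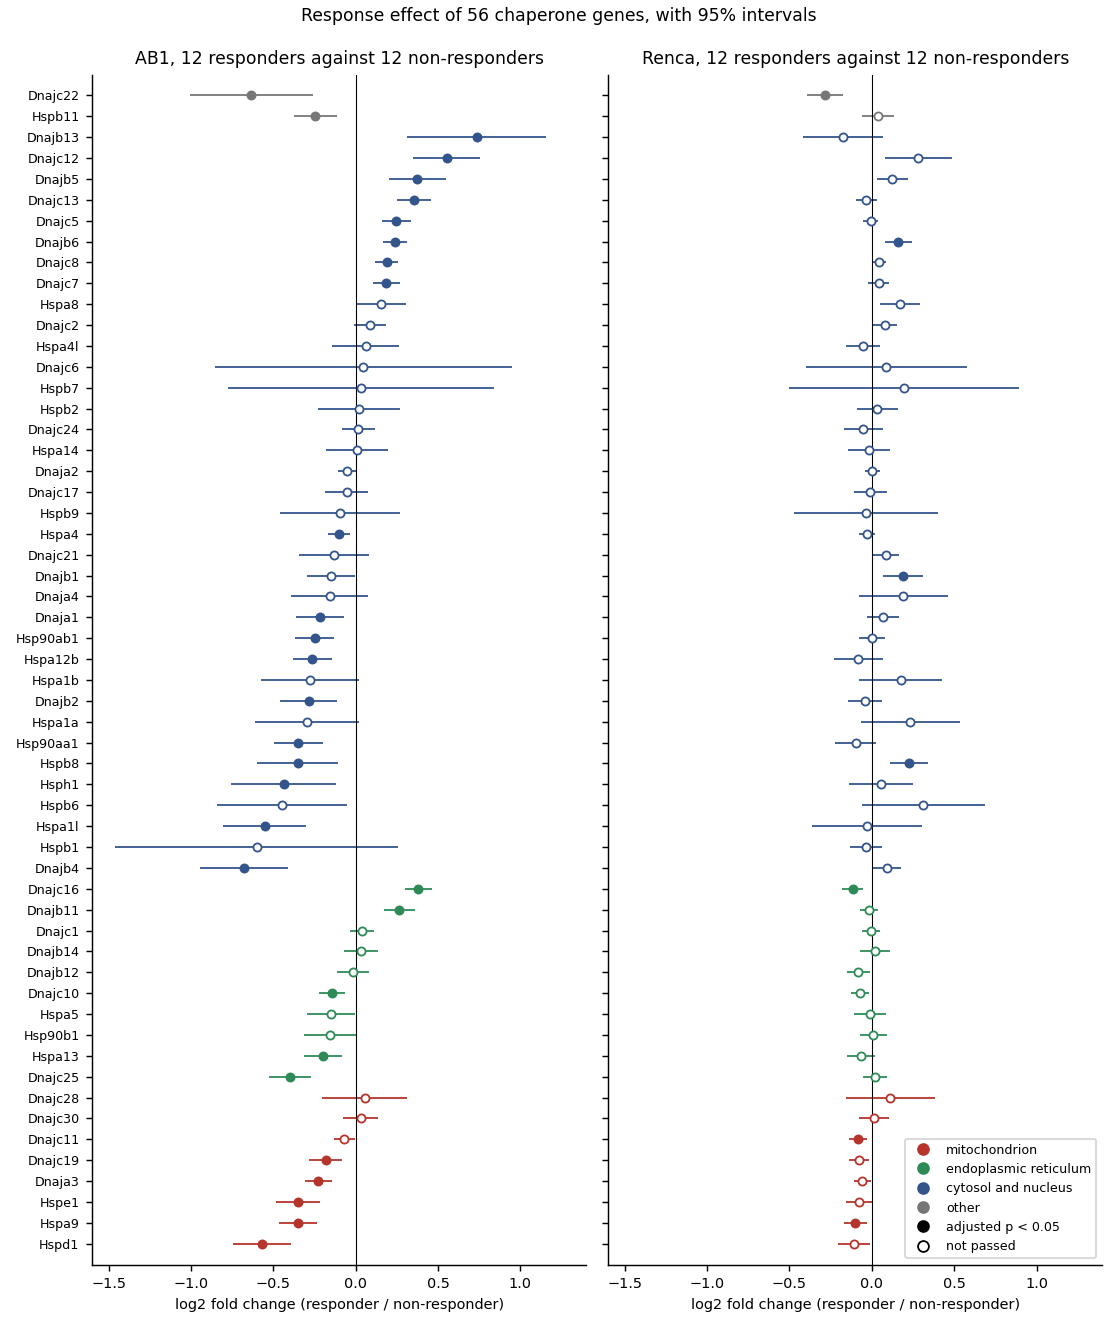
Log2 fold change of responders against non-responders (x axis) for each of the 56 members tested (y axis) in AB1 (left) and Renca (right), 12 tumours per group. Bars are 95% intervals from the normal distribution, filled points passed at an adjusted p under 0.05 by the F test, and colour gives the compartment. In AB1, 5 of 8 mitochondrial members lie below 0 and passed, and all 10 passing points above 0 are J-domain proteins; in Renca, 3 members passed above 0 and 4 below.

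The mitochondrial folding machine was lower in AB1 responders. Hspd1 (HSP60, the chamber of the chaperonin) ran from 312 to 496 CPM with a median of 379 in non-responders and from 196 to 334 with a median of 246 in responders. Of the 12 responders, 11 lay below every non-responder, and Hspd1 fell by 0.57 ± 0.09 on the log2 scale (SE, adjusted p = 1.201e-05). Hspe1 (HSP10, its lid) ran from 73.8 to 110.1 CPM with a median of 92.7 in non-responders and from 58.0 to 87.7 with a median of 68.3 in responders, where 7 lay below every non-responder. It fell by 0.35 ± 0.07 (adjusted p = 0.000134). Hspa9 (mortalin, the HSP70 that pulls proteins into the matrix) ran from 278 to 405 CPM, median 306, in non-responders and from 208 to 290, median 232, in responders. Again 11 responders lay below every non-responder, and the fall was 0.35 ± 0.06 (adjusted p = 2.931e-05). No responder lay above the non-responder median for any of these 3 genes.

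Some mitochondrial J-domain proteins were lower too. Dnaja3 (TID1, the matrix J-domain protein of Hspa9) ran from 44.1 to 59.4 CPM in non-responders and from 38.9 to 48.2 in responders, with medians of 51.3 and 43.0. It fell by 0.23 ± 0.04 (adjusted p = 6.866e-05). Dnajc19, of the import motor at the inner membrane, fell by 0.18 ± 0.05 (adjusted p = 0.003721), with medians of 28.8 and 24.2 CPM; its lowest non-responder, replicate 3 at 19.8 CPM, lay below all responders. Dnajc11, found with the complex that shapes the inner membrane, had medians of 60.8 and 55.8 CPM and did not pass (log2 -0.07, adjusted p = 0.06763; it passed as lower without non-responder 6 or 11 or responder 12, adjusted p down to 0.01897), nor did Dnajc28 and Dnajc30 (0.05 and 0.03). Near-identical pseudogene copies make the values of this group uncertain where counting could split reads: Hspd1-ps3 at 19.1 CPM and Hspa9-ps1 at 14.9 CPM in AB1 had effects of -0.54 ± 0.10 and -0.40 ± 0.07, close to those of Hspd1 and Hspa9, and the first exons of Hspd1 and Hspe1 overlap on opposite strands in GENCODE M21. Dnajc19-ps was the copy nearest its parent gene in level among these 3, at 12.6 CPM in AB1. Its effect was -0.16 ± 0.07 (adjusted p = 0.05622). Summed over the 8 members, the mitochondrial level ran from 819 to 1184 CPM in non-responders and from 593 to 852 in responders.

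**Figure D2:**
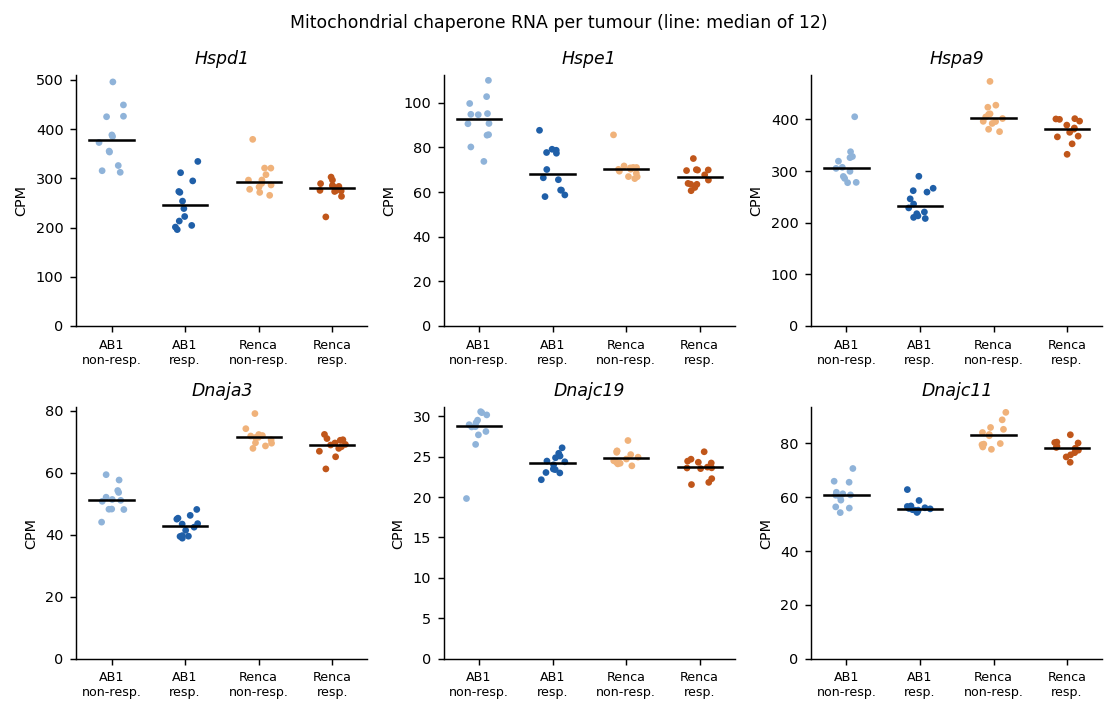
CPM of 6 mitochondrial chaperone genes (y axis, from 0) in each tumour, by group (x axis, 12 points each); lines are medians. Hspd1 medians are 379 and 246 CPM in AB1 non-responders and responders and 293 and 279.5 CPM in Renca.

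Cytosolic HSP90 was lower in AB1 responders, and constitutive HSP70 did not pass over all 24 tumours. Hsp90aa1 (the inducible cytosolic HSP90) ran from 556 to 771 CPM, median 620, in non-responders and from 376 to 643, median 498, in responders. It fell by 0.35 ± 0.07 (adjusted p = 0.0003485), with 9 responders below every non-responder. Hsp90ab1 ran from 1955 to 2449, median 2182, against 1470 to 2068, median 1830, and fell by 0.25 ± 0.06 (adjusted p = 0.00118), also with 9 responders below every non-responder. Hspa8 ran from 2430 to 3464, median 2628, in non-responders and from 2329 to 3592, median 3002, in responders, so the ranges overlapped almost fully. Its log2 change was 0.15 ± 0.08 (adjusted p = 0.08601). The 95% interval of 0.0039 to 0.30 comes from the normal distribution and is narrower than the F test implies. Without non-responder 3, whose Hspa8 was the highest of its group, the change was 0.21 (adjusted p = 0.01225), and it also passed as higher without responder 2, 4 or 6.

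The stress-inducible members of the cytosol varied widely among AB1 tumours. Hspa1b, an inducible HSP70 with little RNA in resting cells, ran from 104 to 273 CPM, median 130.4, in non-responders and from 81.2 to 164, median 110, in responders. The groups overlapped, and its change of -0.28 did not pass (95% interval -0.57 to 0.02, adjusted p = 0.1168); without non-responder 3 it was -0.12 (adjusted p = 0.3679). Hspa1a, its near-identical copy, had a change of -0.29 (adjusted p = 0.1168), and reads could have been split between the copies. Without non-responder 3 the change of Hspa1a was -0.12 (adjusted p = 0.3894). Hsph1 (HSP105, an HSP110 exchange factor) ran from 92.6 to 254 CPM, median 144, in non-responders and from 73.9 to 177, median 89.8, in responders. Its fall of 0.44 ± 0.16 (adjusted p = 0.02302) did not pass when non-responder 3, responder 2 or responder 4 was left out (adjusted p up to 0.05494). Hspa4, the constitutive HSP110, fell by 0.10 ± 0.03 (adjusted p = 0.01667), a call that was lost without responder 4, 6, 8 or 10 (adjusted p up to 0.07651). Dnajb1, the HSP40 partner of inducible HSP70, had a change of -0.15 that did not pass (adjusted p = 0.08033) and that was -0.08 without non-responder 3. It passed as lower without responder 3 (adjusted p = 0.0455). Dnaja1, a farnesylated partner of Hspa8, fell by 0.22 ± 0.08 (adjusted p = 0.01676; 0.05072 without responder 4).

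**Figure D3:**
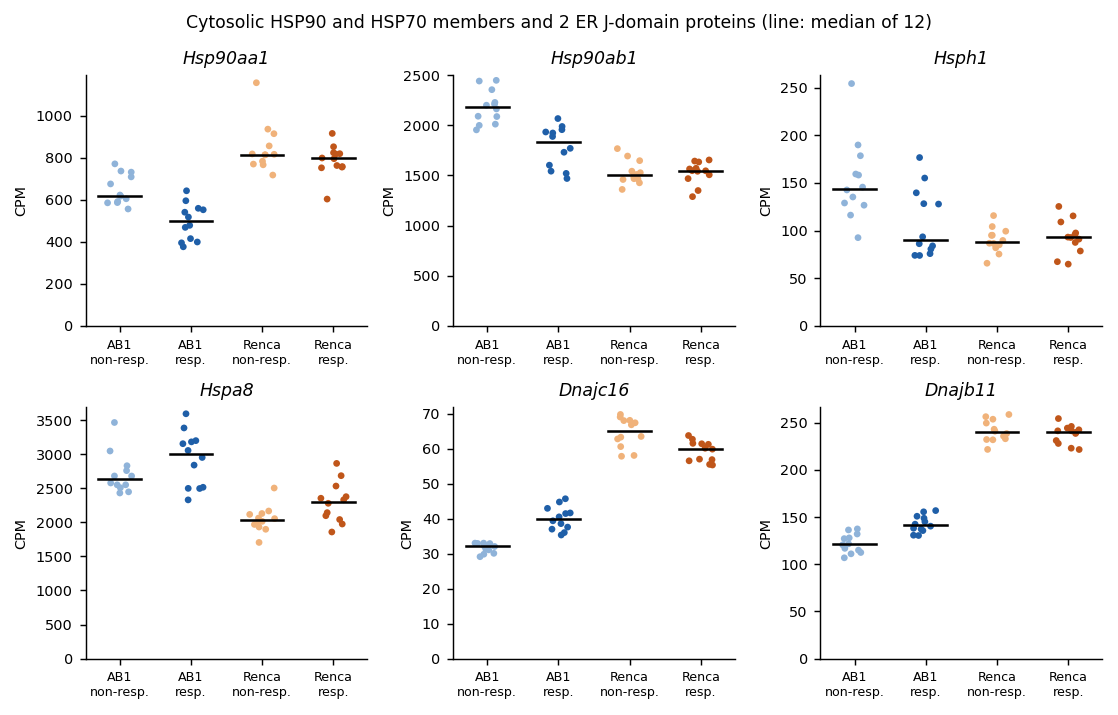
CPM (y axis, from 0) of 2 HSP90 genes, Hsph1, Hspa8 and the ER J-domain genes Dnajc16 and Dnajb11 in each tumour, by group (x axis, 12 points each); lines are medians. Hsp90ab1 medians are 2182 and 1830 CPM in AB1 non-responders and responders, and Dnajc16 of AB1 runs from 29.2 to 33.0 and from 35.4 to 45.7 CPM without overlap.

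Cytosolic J-domain proteins moved both ways in AB1. Dnajb6, which keeps aggregating proteins soluble, ran from 91.7 to 104 CPM, median 96.4, in non-responders and from 98.2 to 125, median 113, in responders, and rose by 0.24 ± 0.04 (adjusted p = 9.968e-06). All but 1 responder lay above every non-responder. Dnajc13 (RME-8, a J-domain protein of endosomes) ran from 119 to 156 CPM and from 144 to 203, with medians of 141 and 179, and rose by 0.35 ± 0.05 (adjusted p = 5.621e-06); 11 responders lay above every non-responder. Dnajc5 (cysteine string protein, of secretory vesicles), Dnajc7 (which bridges HSP70 and HSP90), Dnajc8 (of the spliceosome), Dnajc12 and Dnajb5 rose by between 0.19 (Dnajc7) and 0.55 (Dnajc12). Dnajb13, a protein of sperm and cilia, rose by 0.73 ± 0.21 (adjusted p = 0.005181), from a median of 3.46 to 6.16 CPM. Its exons overlap those of Ucp2 on the other strand, Ucp2 had about 691 CPM and an effect of 0.84 in AB1, and since the strand setting of the counting is not given, reads of the 2 genes cannot be told apart. In Renca the response effects were 0.23 for Ucp2 (adjusted p = 0.02368) and -0.17 for Dnajb13 (adjusted p = 0.3364). Between lines Ucp2 had 0.08 (adjusted p = 0.3834), while Dnajb13 was lower in AB1, as given further on. In the other direction, Dnajb4, a relative of Dnajb1, ran from 46.5 to 85.2 CPM, median 59.4, in non-responders and from 26.4 to 63.8, median 31.2, in responders. It fell by 0.68 ± 0.14 (adjusted p = 0.0001835), with 9 responders below every non-responder. Dnajb2 fell by 0.29 ± 0.09 (adjusted p = 0.008021), and by 0.20 without non-responder 3 (adjusted p = 0.01644).

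In the ER, 2 J-domain proteins rose in AB1 responders and the main chaperones, Hspa5 and Hsp90b1, did not pass over all 24 tumours. Dnajc16 (ERdj8) ran from 29.2 to 33.0 CPM, median 32.1, in non-responders and from 35.4 to 45.7, median 40.0, in responders. It was the 1 member whose AB1 groups did not overlap, as for 2.65% of 15948 genes with at least 480 counts, and it rose by 0.38 ± 0.04 (adjusted p = 4.214e-07). Dnajb11 (ERdj3, the cochaperone of BiP) ran from 107 to 138 CPM and from 131 to 157, with medians of 121 and 141, and rose by 0.26 ± 0.05 (adjusted p = 6.225e-05); 8 responders lay above every non-responder. Hspa5 had medians of 1216 and 1089 CPM and a change of -0.15 (SE 0.08, adjusted p = 0.09176), and it passed as lower without responder 12 (log2 -0.18, adjusted p = 0.02855). Hsp90b1 had medians of 1600 and 1428 CPM and a change of -0.16 (SE 0.08, adjusted p = 0.09437). Dnajc25 ran from 22.4 to 28.9 CPM, median 25.5, in non-responders and from 15.9 to 26.98, median 18.2, in responders, with all responders but replicate 12 below every non-responder, and fell by 0.40 ± 0.07 (adjusted p = 1.988e-05). Hspa13, a small HSP70 of the ER, fell by 0.20 ± 0.06 and Dnajc10 (ERdj5, a disulfide reductase) by 0.14 ± 0.04 (adjusted p = 0.005787 and 0.003953).

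Small heat shock proteins varied widely among AB1 tumours. Hspb1 (HSP27, which guards actin and other clients) ran from 5.26 to 117 CPM, median 17.7, in AB1 non-responders and from 2.77 to 32.6, median 14.7, in responders. The 117 CPM were those of non-responder 3, and the change of -0.60 (adjusted p = 0.2428) was -0.06 without it and 0.07 without the 2 AB1 libraries of low 260/230 ratio. Hspb8, which acts in selective autophagy, ran from 75.7 to 163 CPM, median 90.5, and from 52.5 to 105, median 68.5, and fell by 0.35 ± 0.13 (adjusted p = 0.01871; 0.24 and 0.04154 without non-responder 3). Hspb6 and Hspb7, small heat shock proteins of skeletal and heart muscle, varied with the muscle markers of the sample. Summed Hspb6 and Hspb7 correlated with 14 summed skeletal muscle markers within each of the 4 groups, at r = 0.924 in AB1 non-responders, 0.94 in AB1 responders, 0.991 in Renca non-responders and 0.968 in Renca responders (n = 12 each, rho 0.874 to 1.0, permutation p adjusted over 40 relations at most 0.0015). Leaving out the 2 tumours farthest in muscle kept r between 0.782 and 0.984. The markers themselves ran from 77.4 to 4017 CPM in AB1 non-responders and from 95.4 to 3048 CPM in Renca responders. Neither gene passed for response in either line. Hspb6 had -0.45 ± 0.20 in AB1 (adjusted p = 0.05857) and passed there without non-responder 4, 5 or 9 or responder 12 (adjusted p down to 0.02062). Without non-responder 3 its change in AB1 was -0.31 (adjusted p = 0.1421). Hspb11, an intraflagellar transport protein named like this family, fell by 0.24 ± 0.07 in AB1 (adjusted p = 0.002882).

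Members of low level or of other roles also passed in AB1. Hspa1l, an HSP70 of the testis, had medians of 1.32 and 0.881 CPM and fell by 0.55 ± 0.13 (adjusted p = 0.0007963). Hspa12b, a divergent HSP70 of endothelium, fell by 0.26 ± 0.06 (adjusted p = 0.000763), from a median of 18.6 to 14.4 CPM. Of 6 endothelial markers, 5 had lower medians in responders too: Cdh5 (125.0 and 115.6 CPM), Kdr (92.7 and 81.3), Tie1 (54.8 and 46.5), Tek (22.5 and 16.4) and Emcn (31.2 and 29.99). Pecam1, which leukocytes also carry, had medians of 173 and 223 CPM, and the 6 summed to 509.5 and 517 CPM. The part of endothelial content in the fall of Hspa12b was not tested. Dnajc22 fell by 0.63 ± 0.19 (adjusted p = 0.006389) from a median of 1.83 to 1.16 CPM.

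The AB1 calls were set against batch, tumour composition and single tumours. Within the first flow cell alone, all 30 members that passed kept their direction and 16 passed; within the second, all 30 kept it and 22 passed. Of the 30, 27 passed in each of the 24 fits that left out 1 tumour, the exceptions being Hsph1, Hspa4 and Dnaja1 above. Of the 26 that did not pass, 6 passed in at least 1 of those fits: Hspa8, Hspa5, Dnajb1, Dnajc11 and Hspb6, as given with each, and Dnajc6. Dnajc6 (auxilin, which uncoats clathrin vesicles) stayed at or under 1.07 CPM in all AB1 tumours but non-responder 3, which had 4.20 CPM. Its group medians were 0.411 and 0.615 CPM, and its change of 0.05 (adjusted p = 0.9389) became a rise of 0.84 without that tumour (adjusted p = 0.01091). With the mean level of the leukocyte markers as a further term, 0 genes and 0 members passed in AB1 by edgeR, the 1 tool used for that fit (1245 genes and 2 members at an unadjusted p under 0.05). That level correlated with response at r = 0.851, so the effects of response and of leukocyte content cannot be told apart in these tumours.

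The same comparison in Renca gave smaller changes. Of 56 members tested, 3 were higher and 4 lower in responders, 12.5% in all, against 19.6% of 15778 genes (11.1% higher and 8.52% lower). The lower genes numbered 1345, and between 793 and 896 when non-responder 1, 4 or 10 or responder 5, 6 or 8 was left out. No member had groups that did not overlap, and 0.00627% of genes had such groups. Dnajb6 ran from 65.4 to 82.3 CPM, median 73.2, in non-responders and from 69.3 to 89.8, median 80.6, in responders. It rose by 0.16 ± 0.04 (adjusted p = 0.01162), the 1 member that was higher in responders of both lines. Hspb8 rose by 0.23 ± 0.06 (adjusted p = 0.009484), from a median of 76.6 to 91.8 CPM, with 6 responders above every non-responder. Dnajb1 rose by 0.19 ± 0.06 (adjusted p = 0.03315; not passed without non-responder 6 or responder 10, 11 or 12, adjusted p up to 0.06303; 0.07074 when same-numbered tumours were blocked). Dnajc22 ran from 16.1 to 20.5 CPM, median 17.7, in non-responders and from 12.2 to 17.3, median 14.8, in responders, and fell by 0.28 ± 0.05 (adjusted p = 0.003205). Renal tubule markers (6 of 7) had medians of 383 and 302 CPM in the same groups, and their part in the fall was not tested. Dnajc16 fell by 0.12 ± 0.03 (adjusted p = 0.01417), from a median of 65.2 to 60.0 CPM.

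The mitochondrial members of Renca shifted little. Hspa9 fell by 0.10 ± 0.04 (adjusted p = 0.04808), from a median of 403 to 382 CPM, but 20 of the 24 fits without 1 tumour ended the call (adjusted p up to 0.1285), as did blocking same-numbered tumours (adjusted p = 0.0766). Dnajc11 fell by 0.08 ± 0.03 (adjusted p = 0.03559; lost in 13 of the 24 fits, adjusted p up to 0.1029, and 0.07038 with the block). Hspd1 had medians of 293 and 279.5 CPM and a change of -0.11 (95% interval -0.21 to -0.0084, adjusted p = 0.1362), and Hspe1 medians of 70.2 and 66.6 CPM and a change of -0.08 (adjusted p = 0.1805). Hspa8 had medians of 2034 and 2304 CPM and a change of 0.17 ± 0.06 (adjusted p = 0.05413; it passed in 7 of the 24 fits that left out 1 tumour). Hspa5, Hsp90b1, Hsp90ab1 and Hsp90aa1 had changes of -0.01, 0.01, 0.00 and -0.10 and did not pass. Of the 49 members that did not pass, 7 passed in at least 1 of the fits that left out 1 tumour: Hspa8, Dnajb4, Dnajb5, Dnajc8 and Dnajc12 as higher and Dnajb12 and Dnajc10 as lower (adjusted p down to 0.006016, for Dnajb5). Within flow cells, the 7 members that passed over all tumours kept their direction in both, 0 passed in the first and 2 in the second. With the leukocyte level as a term, 0 genes and 0 members passed by edgeR (615 genes and 1 member at an unadjusted p under 0.05; the level correlated with response at r = 0.71). With the RNA purity ratios of the labels as terms, 0 members passed by edgeR and 11 had an unadjusted p under 0.05.

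Effects of response differed between the lines for 20 of 56 members, 8 with a more positive effect in AB1 and 12 with a more negative one, or 35.7% against 41.6% of 16920 genes (22.9% and 18.6%). These tests compare the effects themselves over all 48 tumours. The 8 were all J-domain proteins, of 32 tested, and the other 24 members gave 0 and 7. Dnajc16 had the smallest p: it rose in AB1 and fell in Renca, a difference of 0.53 ± 0.05 (adjusted p = 3.546e-09). Hspb8 moved the other way, down in AB1 and up in Renca, with a difference of -0.54 ± 0.14 (adjusted p = 0.001476). Dnajc13, Dnajb11 and Dnajc5 had differences of 0.42 ± 0.06, 0.31 ± 0.06 and 0.29 ± 0.05 (adjusted p = 1.152e-06, 1.692e-05 and 1.813e-05), and Dnajb4 one of -0.74 ± 0.14 (adjusted p = 6.477e-05). The 4 mitochondrial members Hspd1, Hspe1, Hspa9 and Dnaja3 fell more in AB1, by differences of -0.43, -0.24, -0.22 and -0.14 (adjusted p between 0.001142 and 0.03088). Hsph1 had a difference of -0.46 that did not pass (adjusted p = 0.05151; 0.04782 when same-numbered tumours were blocked). Hspb6 had a difference of -0.73 with neither effect passing, and the skeletal muscle markers, with which summed Hspb6 and Hspb7 varied above, had medians that lay in the same opposite directions: their sums were 1185 and 889 CPM in AB1 non-responders and responders, and 995.9 and 1845 CPM in Renca. Their part in that difference was not tested. Which direction held more of all genes' calls in this comparison depended on the processing. Calls with a more positive effect in AB1 made up 55.1% here, 55.3% with a filter at 1 CPM, 53.4% with the replicate block and 53.7% without libraries of low 260/230 ratio, but 47.5% by RLE scaling, 43.6% by upper-quartile scaling, 47.7% by DESeq2, 41.1% without a filter, 41.0% with a filter by group and 40.7% without the flow cell term. Among the members, the more negative effects were more numerous in each of these fits. In the Renca response, upper-quartile scaling gave 45.4% higher calls in place of 56.5%.

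AB1 and Renca tumours also differed in their chaperones at large, though line, day of removal and flow cell cannot be told apart here. Of 56 members, 21 were higher and 24 lower in AB1, or 80.4% in all, against 81.4% of 16258 genes (42.2% higher and 39.3% lower). Groups of 24 did not overlap for 12 members, and for 21.1% of 15948 genes. Dnajc22 ran from 0.519 to 2.85 CPM in AB1 and from 12.2 to 20.5 in Renca, and was lower in AB1 by 3.48 ± 0.10 on the log2 scale (adjusted p = 1.507e-33). Hspb1 ran from 2.77 to 117 CPM in AB1 and from 97.1 to 141 in Renca, with all AB1 tumours but non-responder 3 below every Renca tumour (log2 -2.52 ± 0.23, adjusted p = 3.158e-14). Dnajc21, which acts in maturation of the large ribosomal subunit, ran from 59.2 to 129 CPM in AB1 and from 20.9 to 26.6 in Renca (log2 1.7996 ± 0.06, adjusted p = 3.403e-30). These 3 separate the lines by level; the first and the third had no overlap.

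Inducible HSP70 of the cytosol was higher in AB1, and most ER members were higher in Renca. Hspa1b ran from 81.2 to 273 CPM in AB1 and from 23.2 to 76.6 in Renca, without overlap (log2 1.43 ± 0.11, adjusted p = 3.857e-17), and Hspa1a had 1.45 ± 0.12 (adjusted p = 1.676e-15). Dnaja4, Dnaja1, Hsph1, Dnajb1, Hspa4l, Hspa8 and Hsp90ab1 were higher in AB1 too, by between 0.37 (Hsp90ab1) and 0.94 (Dnaja4). Hsp90aa1 ran the other way, lower in AB1 by 0.53 ± 0.06 (adjusted p = 1.477e-11). In the ER, 8 of 10 members were lower in AB1 and 2 higher: Dnajb11, Dnajc16, Dnajb12 and Dnajc10 by 0.86, 0.80, 0.64 and 0.55, all 4 without overlap, while Dnajc25 was higher by 0.28 ± 0.05 (adjusted p = 3.048e-06), Hsp90b1 was higher by 0.38 ± 0.05 (adjusted p = 2.719e-09) and Hspa5 was lower by 0.21 ± 0.05 (adjusted p = 6.374e-05). In mitochondria, Dnaja3, Hspa9 and Dnajc11 were lower in AB1 by 0.57, 0.52 and 0.46, and Dnajc28, Hspe1 and Dnajc19 higher by 0.78, 0.23 and 0.10. Hspd1 did not pass (0.11 ± 0.07, adjusted p = 0.1197). Reads of Dnajc19 could have been split with Dnajc19-ps, which did not pass (0.03 ± 0.05, adjusted p = 0.5548). Dnajc12 was higher in AB1 by 0.52 ± 0.08, and Dnajb13, Dnajb5 and Hspb2 were lower by 0.96, 0.64 and 0.60; exons of Hspb2 overlap those of Cryab, which was lower by 2.09. Among responders alone, Hsph1, Hspe1, Dnajc25 and Dnajc13 did not pass between the lines (adjusted p = 0.1995, 0.328, 0.5447 and 0.877). Hspb11 ran from 9.99 to 17.4 CPM in AB1 and from 6.30 to 8.91 in Renca (log2 0.77 ± 0.05, adjusted p = 4.217e-20).

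**Figure D4:**
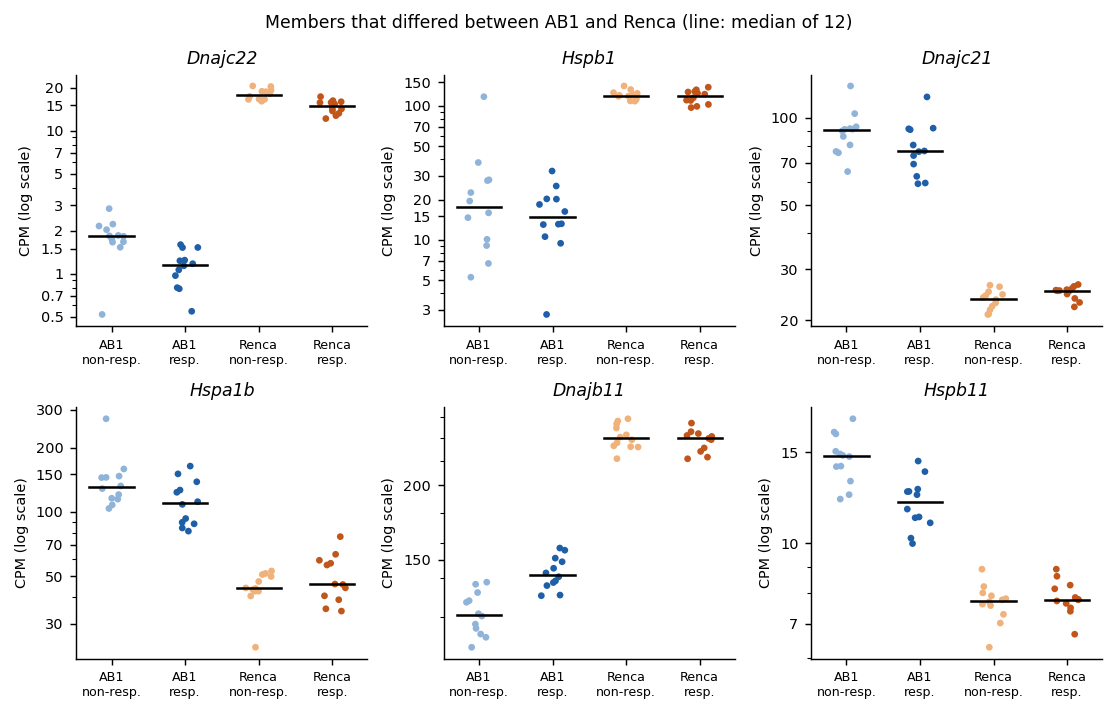
CPM (y axis, log scale) of 6 members in each tumour, by group (x axis, 12 points each); lines are medians. Dnajc22, Dnajc21, Hspa1b, Dnajb11 and Hspb11 do not overlap between the 24 AB1 and 24 Renca tumours, and for Hspb1 the 1 AB1 tumour among the Renca values is non-responder 3 at 117 CPM.

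Chosen pairs of members were then compared across the 12 tumours of each group, in 40 relations in all. Hspd1 and Hspe1, with the shared promoter shown above, correlated at r = 0.878 in AB1 non-responders, 0.921 in AB1 responders, 0.836 in Renca non-responders and 0.658 in Renca responders (rho 0.923, 0.937, 0.643 and 0.622, adjusted permutation p of r 0.00064, 0.000267, 0.0107 and 0.0229). Without the 2 tumours farthest in Hspd1, r was between 0.567 and 0.966. Within single flow cells that held at least 6 tumours of a group, r was 0.914 and 0.92 in AB1, 0.93 and 0.056 in Renca non-responders and 0.464 and 0.86 in Renca responders. The lowest, 0.056, was that of 1 flow cell of Renca non-responders. These values rest on 6 or 7 tumours each and were not tested, so they cannot show whether the relation differed between flow cells. Hspa5 and Hsp90b1, which both carry an ER stress element, correlated at r = 0.847, 0.786, 0.806 and 0.876 in the same order (rho 0.748 to 0.881, adjusted p at most 0.00742) between 0.66 and 0.876 without 2 tumours, and between 0.772 and 0.911 within single flow cells. Hspa5 with Dnajb11 gave r between 0.631 and 0.771, between 0.355 and 0.842 without 2 tumours, and between 0.405 and 0.942 within flow cells (adjusted p of r between 0.00701 and 0.042). Its rho was 0.608, 0.601, 0.832 and 0.573 and passed only in Renca non-responders (adjusted p 0.0676, 0.0689, 0.00392 and 0.0829). Hspa8 and Hsp90aa1 of the cytosol gave r between 0.0817 and 0.287 (adjusted p of 0.41 or more).

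The inducible set was less even. Hspa1a and Hspa1b gave r between 0.96 and 0.992, as near-identical copies whose reads may be shared. Hspa1b and Dnajb1 gave 0.865, 0.795, 0.404 and 0.809, of which all but the third, Renca non-responders, passed (adjusted permutation p 0.00375, 0.00507, 0.247 and 0.00375; within flow cells 0.144 to 0.905). Hspa1b and Hsph1 gave 0.693 in AB1 non-responders and -0.0194 without the 2 farthest tumours, so that relation rested on them; in AB1 responders r was 0.869, and 0.817 without 2. In Renca, r of Hspa1b and Hsph1 was 0.608 in non-responders (adjusted permutation p = 0.0658, and -0.048 without 2 tumours). In Renca responders r was 0.683 (adjusted p = 0.0238, and 0.548 without 2 tumours). Within flow cells r of this pair ran from -0.146 to 0.818. Hspa5 and Hspd1, of different compartments, gave 0.895 in AB1 responders (rho 0.895, adjusted p = 0.000892; 0.847 without 2 tumours, 0.923 within the second flow cell) and between 0.317 and 0.446 in the other 3 groups, where none passed (adjusted p 0.198 or more). Hspa1b and Hspa5, also of different compartments, gave r = 0.754 in AB1 responders and 0.603 in Renca non-responders (adjusted permutation p 0.0131 and 0.0358). In Renca non-responders r was 0.228 without 2 tumours, and rho was 0.413 (adjusted p = 0.237). In AB1 non-responders and Renca responders r was -0.122 and 0.338 (adjusted p 0.743 and 0.331). Whether these correlations differ between groups was not tested. Tumours of a group differed in cell composition and depth, as with skeletal muscle markers at 77.4 to 4017 CPM in AB1 non-responders. The part of composition and depth in the correlations was not tested.

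**Figure D5:**
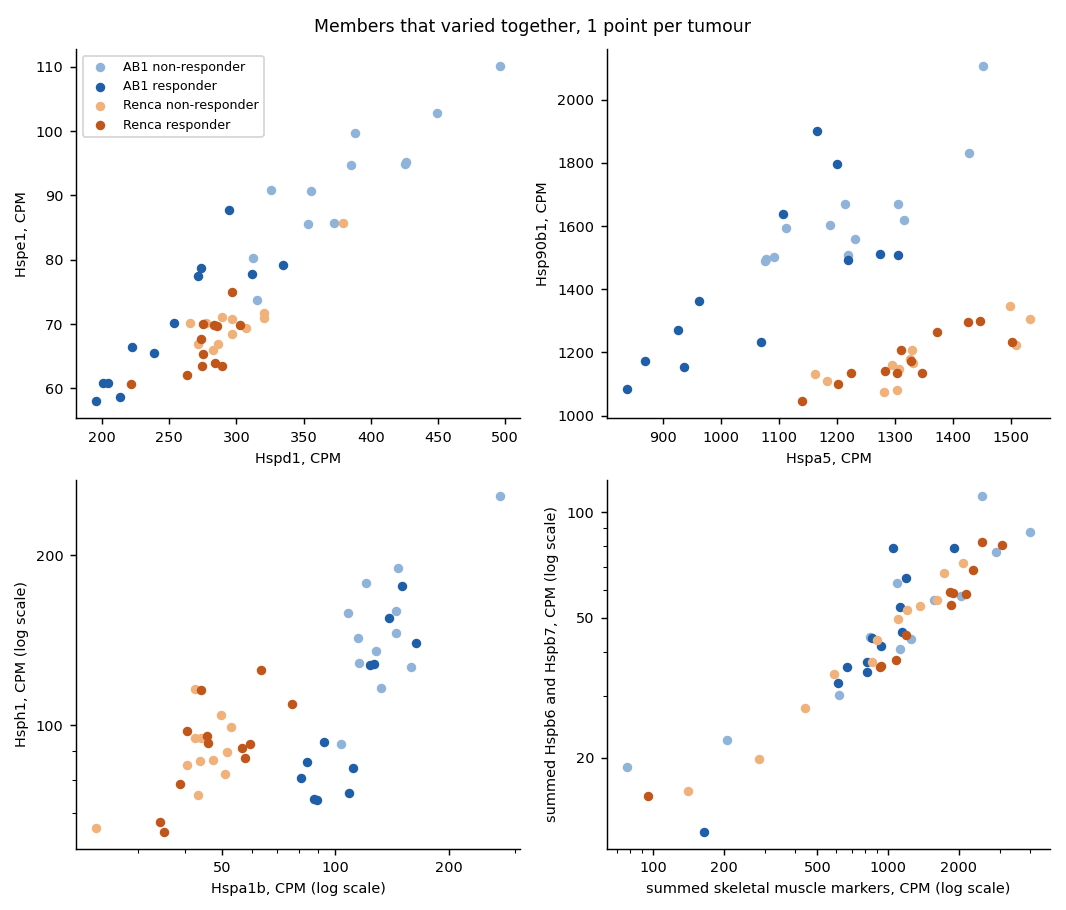
Pairs of CPM values, 1 point per tumour and 1 colour per group: Hspe1 against Hspd1 and Hsp90b1 against Hspa5 (linear axes), Hsph1 against Hspa1b and summed Hspb6 and Hspb7 against summed skeletal muscle markers (log axes). Within groups, r was 0.658 to 0.921 for Hspd1 and Hspe1 and 0.924 to 0.991 for the muscle pair, and the highest Hspa1b point, at 273 CPM, is AB1 non-responder 3.

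Other genes of the same pathways were read beside the members, from lists that include some of them. In AB1 responders, 9 of 12 tested subunits of the cytosolic chaperonin TRiC and its helper prefoldin were lower and 0 higher, with Cct6a the largest fall (0.41 ± 0.07, adjusted p = 1.694e-05). Of 12 tested HSP90 cochaperones, 9 were lower and 0 higher, with Fkbp5 the largest fall (0.63 ± 0.26, adjusted p = 0.03848), a call that 12 of the 24 fits without 1 tumour ended, non-responder 3 among them (adjusted p up to 0.1167). Such fits also ended the calls of Pih1d1 (19 of 24), Unc45b (15), Cdc37 (4) and Nudc (4). For Pih1d1 and Unc45b the fit without non-responder 3 was among them. Ppp5c passed as lower in 1 fit. HSP70 exchange factors gave 6 lower and 0 higher of 10, led by Bag2 (0.67 ± 0.12, adjusted p = 4.848e-05). The call of Hspbp1 was lost in 4 of the 24 fits, and Grpel1 passed as lower in 2. The mitochondrial list gave 9 lower and 0 higher of 11, led by Atf5 (0.68 ± 0.11, adjusted p = 2.721e-05), a factor of the mitochondrial stress response. The 9 include the members Hspd1, Hspe1, Hspa9 and Dnaja3, already given above. Calls of Clpx, Pam16, Timm44 and Trap1 were lost in 17, 5, 5 and 1 of the 24 fits. For Clpx and Pam16 the fit without non-responder 3 was among them. Htra2 and Yme1l1 passed as higher in 10 fits each. The targets of heat shock factor 1 gave 7 lower and 0 higher of 15. Apart from Bag3, the 7 are members whose calls are given above: Dnaja1, Hsp90aa1, Hsp90ab1, Hsph1, Hspd1 and Hspe1. The ER list was mixed, with 3 higher and 5 lower of 20: Sdf2l1, a partner of Dnajb11, rose by 0.46 ± 0.10 (adjusted p = 0.0005131) and P4hb, a disulfide isomerase, fell by 0.36 ± 0.07 (adjusted p = 0.000119). Calls of Pdia4 and Ddit3, both lower, were lost in 11 and 9 of the 24 fits, for Ddit3 also without non-responder 3. Xbp1 passed as higher in 6 fits, Atf6 as higher in 1 and Pdia6 as lower in 2, beside Hspa5 above. Hsf4 fell by 0.57 ± 0.07 (adjusted p = 9.548e-07), and Gak, a J-domain kinase that uncoats clathrin vesicles, rose by 0.30 ± 0.04 (adjusted p = 1.492e-06). Over all genes, 32.7% were lower.

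In Renca responders fewer of these genes passed than in AB1. Over all genes in Renca, 11.1% were higher and 8.52% lower. The targets of heat shock factor 1 gave 1 higher and 0 lower of 15, the member Dnajb1. J-domain proteins outside the members, Gak among them, gave 0 of 4. The chaperonin list gave 1 higher and 1 lower of 12, Pfdn5 (0.08 ± 0.02) and Cct8 (-0.09 ± 0.03), the HSP90 cochaperones 0 of 12, the exchange factors 1 lower of 10, Bag2 (-0.23 ± 0.05), and the mitochondrial list 2 lower of 11, Atf5 (-0.24 ± 0.06) and Hspa9. The ER list gave 2 lower of 20, Trib3 (-0.23 ± 0.05) and Ern1, and Hsf4 was lower by 0.16 ± 0.05; adjusted p values of these named genes were between 0.003497 and 0.04808. Of the 24 fits without 1 tumour, 11 ended the call of Cct8, 7 that of Ern1 and 17 that of Hsf4 (adjusted p up to 0.08093, 0.07443 and 0.0996). Bag2, Atf5, Hsf4, Cct8 and Hspa9 were thus lower in responders of both lines over all tumours.

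Of the 61 members, 5 were not tested because of low counts. Dnajb3, Dnajb7, Dnajb8, Dnajc5b and Dnajc5g stayed at or under 0.627 CPM in every library, and Dnajc5g had 0 counts in all 48.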

How the data were processed

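RNA of 48 whole tumours was sequenced, 12 per group. The authors deposited 1 table of raw counts per gene. Tools listed in the submitters' processing notes are StringTie 1.3.0, HISAT2 2.0.4 and bcl2fastq 2.18.0.12, beside the human builds GRCh37 and hg19. Which mouse build, annotation, counter and strand option were used is not stated there or in the labels. Of 39637 identifiers, 39461 matched GENCODE M21 (GRCm38).

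Counts were scaled by TMM and tested with edgeR 4.0.16 (R 4.3.3, quasi-likelihood F test, filterByExpr, Benjamini-Hochberg adjustment over all genes tested, threshold 0.05). Flow cell was a term in the response tests and in the test of their difference. The comparison of AB1 with Renca had response as a term and no flow cell term. The standard error is the log2 fold change over the square root of F. The 95% intervals are the change plus or minus the normal quantile times that error, so they are narrower than the F test implies. CPM use TMM factors computed over all 48 libraries, whereas each test computed factors on its own libraries and genes. Per kilobase values divide by GENCODE exon length. Correlations used 100000 permutations (Python 3.11.15). The test procedure was also run on simulated counts in which few genes changed, evenly up and down. Far more genes passed in each main comparison of these data, so that run cannot show how scaling behaves here. Totals of 16441426 to 27838494 counts limit precision at low levels.

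Members and gene lists were chosen with earlier results of these data known. Named genes were 20 core members (of which Dnajb9 and Dnajc3 were not analysed here), in each comparison the 8 largest rises and 8 largest falls among members that passed with a mean of at least 1 CPM, the 5 smallest p of the difference between lines, and the largest rise and fall of each pathway list; other members named were chosen after their values were seen. Alternatives covered scaling, DESeq2 1.42.0, filters, batch, purity, leukocyte level, replicate block and leaving out each tumour; the filter by group was added after seeing the data. Per the labels, a responder and the non-responder of the same number ran in 1 lane (12 of 12 pairs per line). Their deviations correlated at r from -0.0972 to 0.706 (median 0.0473) in AB1 and from -0.126 to 0.293 (median 0.0630) in Renca. The labels give separate samples, so p-values measure the spread between these tumours.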

Additional observations from a re-analysis of the deposited data

Results flagged for a closer look

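The effect of response differed between AB1 and Renca for 20 members, by edgeR's quasi-likelihood test of the difference itself with Benjamini-Hochberg adjustment; values are the AB1 minus the Renca effect on the log2 scale. It was more positive in AB1 for Dnajb13 (0.9475), Dnajc16 (0.5319), Dnajc13 (0.4198), Dnajb11 (0.3149), Dnajc5 (0.2884), Dnajb5 (0.2836), Dnajc7 (0.1783) and Dnajc8 (0.1755). It was more negative in AB1 for the cytosolic Dnajb4 (-0.7396), Hspb6 (-0.7285), Hspb8 (-0.5436), Dnajb1 (-0.304), Dnaja1 (-0.2501) and Hsp90ab1 (-0.2205). For Hspb6, neither response effect passed, and skeletal muscle markers had summed medians of 1185 and 889 CPM in AB1 non-responders and responders and 995.9 and 1845 CPM in Renca; their part was not tested. The effect was also more negative in AB1 for the mitochondrial Hspd1 (-0.4288), Hspe1 (-0.2403), Hspa9 (-0.2181) and Dnaja3 (-0.1367), for the ER member Dnajc25 (-0.3847) and for Hspb11 (-0.2504). Over all genes, 41.6% differed. Reads of Dnajb13 cannot be told apart from those of Ucp2, whose own difference was 0.642 (adjusted p = 0.0001222).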

How the results depend on the processing

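Where values moved, the cause was not tested unless the setting itself left fewer tumours or genes. In AB1, 9 and 12 members were lower within the first and second flow cell, and with the leukocyte term 0 were higher and 0 lower. In Renca, members higher numbered 6 by DESeq2, 1 in 1 fit of all libraries and 0 within the first flow cell, within the second, with purity terms and with the leukocyte term. Members lower numbered 2 without a filter, with the replicate block, without the library of low 260/230 ratio, within the second flow cell and in 1 fit of all libraries, and 0 within the first flow cell, with purity terms and with the leukocyte term. Leaving out 1 tumour gave 2 to 7 higher and 2 to 6 lower in Renca. In Renca the replicate block, the pairing by number, ended the calls of Dnajb1, Dnajc11 and Hspa9 and gave Dnajb5 one (adjusted p = 0.02841). Over all genes in Renca, 1750 were higher and 1345 lower, against 501 and 539 in 1 fit, 128 and 76 with purity terms, 874 and 379 within the second flow cell, and 0 by edgeR within the first (2803 at an unadjusted p under 0.05). For the difference between lines, 5 members were higher without a filter, 21 lower with a filter by group (added after seeing the data) and 20 lower without the flow cell term.

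Signs turned for effects that had not passed, except as named. In AB1, Hspb7 was -0.03029 with upper-quartile scaling and -0.2768 in the first flow cell, and -0.1007 to 0.2453 leaving out 1 tumour; Hspb1 was 0.07224 without low 260/230. With the leukocyte term, Hspb1 was 0.5696, Hsp90b1 0.01017, Hspb6 0.1483, Hspb8 (passed) 0.04855, Hspa1b 0.05131 and Hspa1a 0.07982. In Renca, upper-quartile scaling, the first flow cell and 1 fit gave -0.00936, -0.02703 and -0.02158 for Hsp90b1 and -0.01375, -0.03486 and -0.0259 for Hsp90ab1. Hsph1 was -0.03561 in the first flow cell. Without low 260/230, Dnajb11 was 0.001351 and Hspa5 0.01204; Hspa5 was also 0.02607 in the second flow cell, 0.01491 with purity and 0.006006 with the leukocyte term. That term gave Dnaja3 0.01111, Dnajb11 0.03172, Hspb7 -0.2321, Hsp90aa1 0.05712, Hspa9 (passed) 0.02685 and Hspd1 0.02635. Leaving out 1 tumour gave -0.004148 to 0.03912 for Hsp90b1, -0.01263 to 0.0298 for Hsp90ab1, -0.02175 to 0.002948 for Dnajb11 and -0.02766 to 0.01652 for Hspa5. The difference for Hspa8 was -0.01665 by RLE and by DESeq2, -0.03893 with upper-quartile scaling, -0.05443 without a filter, -0.04957 with a filter by group and -0.05229 without flow cell; without low 260/230 Hspb1 was 0.09448 and Hspb7 0.18. Between lines, Hspd1 was -0.1448 in responders and Hspb6 0.1444 in non-responders.

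Without the 2 farthest tumours, r was 0.97 and 0.938 for Hspa1a and Hspa1b (AB1 and Renca non-responders), 0.691 and 0.627 for Hspa1b and Dnajb1 (AB1 non-responders, Renca responders), and -0.0194 and -0.048 for Hspa1b and Hsph1 (AB1 and Renca non-responders). It was 0.707 for Hspa5 and Hsp90b1 (AB1 non-responders), 0.355 for Hspa5 and Dnajb11 (AB1 responders), and 0.966 and 0.635 for Hspd1 and Hspe1 (AB1 responders, Renca non-responders). It was -0.518 and 0.228 for Hspa1b and Hspa5 (AB1 and Renca non-responders), -0.0272 and 0.684 for Hspa5 and Hspd1 (AB1 non-responders, Renca responders) and 0.782 for muscle (AB1 responders). No library met the rule for leaving out muscle-rich tumours.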
